A study of Mus musculus with 10 samples.

Results

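To describe how sodium acetate bears on the regulators of the effector state, 8 transcription factor genes of effector CD8+ T cell differentiation were followed: Tbx21, Eomes, Prdm1, Zeb2, Id2, Runx3, Bhlhe40 and Ikzf3. They were chosen by name among 57825 listed genes, each name occurred once, and all 8 were among the 15710 genes tested. CD8+ T cells from spleens of female Balb/c mice aged 7 to 8 weeks were activated for 12 h on plate-bound anti-CD3 with IL-2 and anti-CD28, kept with or without 5 mM sodium acetate (NaAc) for 24 h, and co-cultured for 48 h with 4T1 cells, a mouse mammary carcinoma line. RNA of the purified T cells was sequenced in 5 samples without acetate (CD8+4T1) and 5 with acetate (CD8+4T1+NaAc), labelled day 3. Both groups held activated T cells and tumor cells, so the comparison is about acetate within the co-culture and not about the tumor cells or the activation. The labels do not say whether the samples of a group came from separate mice or cultures, and the p-values measure the spread between these samples.

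After activation, a naive CD8+ T cell can become a short-lived killer cell or a memory precursor, and the balance between these fates is set by transcription factors that act against each other. T-bet (encoded by Tbx21), Blimp-1 (Prdm1), Zeb2 and Id2 are known to favour the effector fate, while TCF-1 (Tcf7), Id3, Bcl6 and Klf2 are linked to memory or quiescence. Eomes, the T-box relative of T-bet, shares effector targets with it and is also needed for memory cells.

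The level of a gene is given as FPKM, fragments scaled to gene length in kilobases and to the sequencing depth of the sample. Between 16306447 and 18853726 fragments per sample lay behind the scaling, and between 102 (Prdm1) and 14137 (Bhlhe40) fragments lay behind each value of the 8 genes. Genes were compared with limma on log2(FPKM + 0.1), p-values were adjusted over all 15710 genes by the Benjamini-Hochberg method, and a gene was called at an adjusted p under 0.05. Replicate 1 stood apart in both groups by the number of genes above 0 FPKM, with 22291 against 23786 to 24054 in CD8+4T1 and 20233 against 24681 to 25088 in CD8+4T1+NaAc, and calls of the 8 genes and their named relatives that changed without it are stated. The defining markers of CD8+ T cells were present in both groups: the mean of Cd8a was 78.6 ± 2.34 without and 76.5 ± 4.37 FPKM with acetate (SD, n = 5 each), whereas Cd4 lay between 0.335 and 0.796 FPKM without and between 1.39 and 1.87 FPKM with acetate.

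Of the 8 genes, 4 were called in limma: Eomes, Id2 and Ikzf3 were higher and Tbx21 was lower in CD8+4T1+NaAc. Prdm1, Zeb2, Runx3 and Bhlhe40 were not called, and none of the 8 genes had an absolute log2 fold change over 1, a size that 6.47% of all genes tested passed together with the call. Over all genes tested 36.5% were called (17.6% higher and 19.0% lower), over the 7800 genes averaging 5 FPKM or more 45.6%, and over the 861 genes for which the table lists a transcription factor family 32.5%. A share of 4 in 8 genes is close to this background. The median log2 fold change of the 8 genes was 0.09, against -0.02 for all genes tested. Without replicate 1 of both groups, a setting added after the data were seen, 5 genes were called, 3 higher and 2 lower, with Runx3 as the added one. The summed FPKM of a sample did not overlap between the groups, at 310965 to 335151 in CD8+4T1 and 282995 to 295928 in CD8+4T1+NaAc. Of the fragments behind the scaling, 95.5% to 97.9% lay on listed genes in CD8+4T1 and 89.8% to 92.1% in CD8+4T1+NaAc. When all samples were brought to an equal sum of FPKM (same-total scaling), the median of all genes moved to 0.15, that of the 8 genes moved to 0.27, and the calls over all genes went from 2764 higher and 2978 lower to 4900 higher and 1387 lower. Under that scaling Prdm1 joined the higher genes, and Tbx21 was still lower (log2 fold change -0.40, limma adjusted p = 0.000919).

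**Figure D1:**
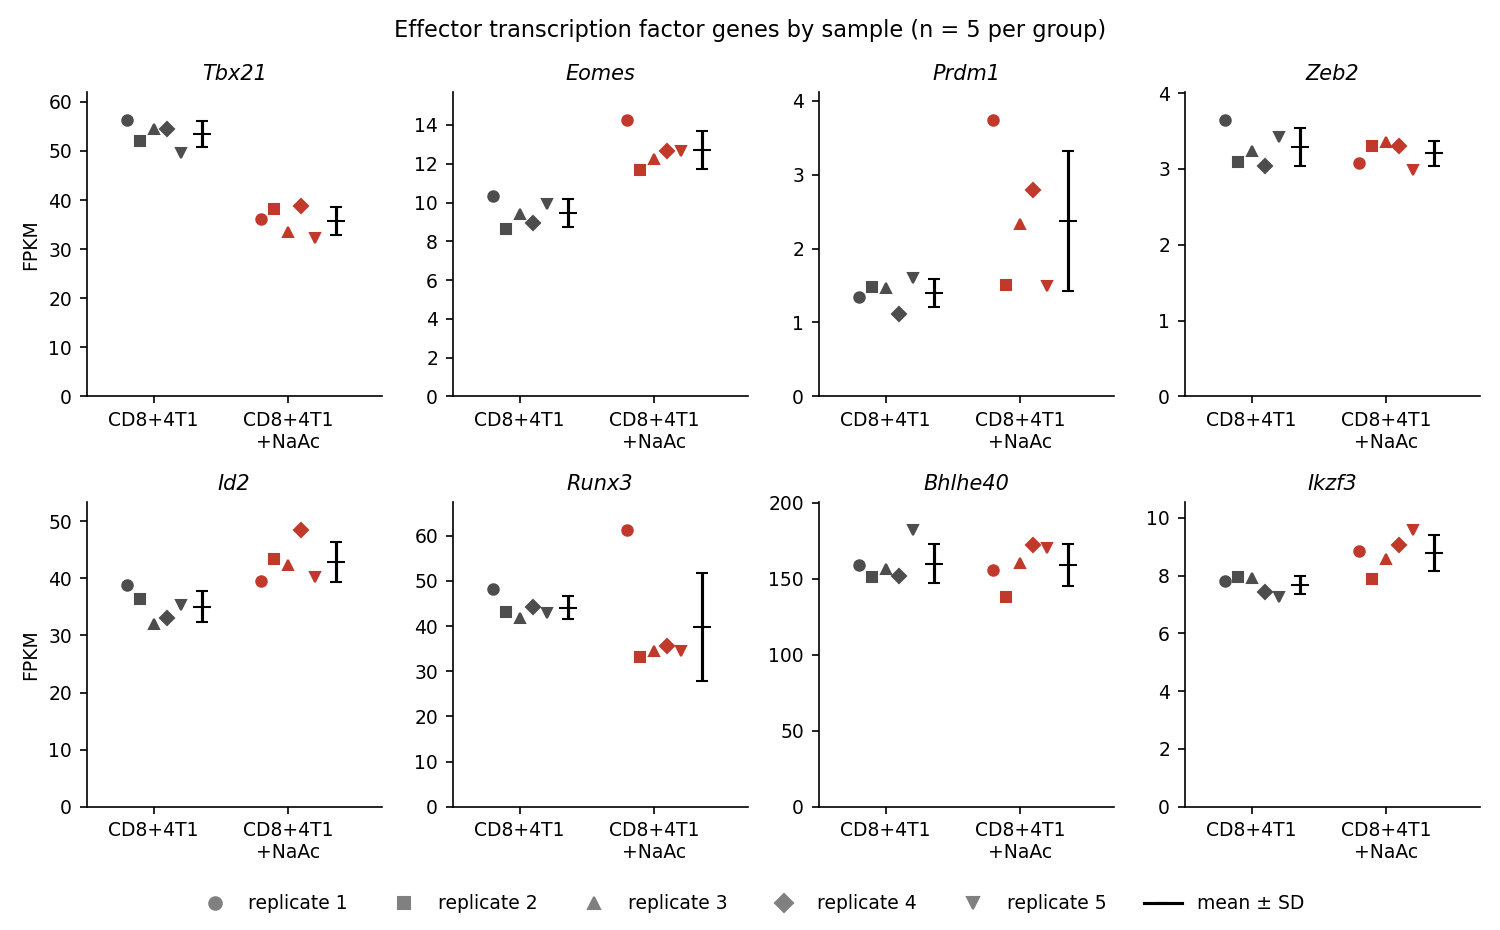
FPKM of the 8 transcription factor genes (vertical axes, each from 0) in the 5 samples of each group (symbols, 1 per replicate), with the mean ± SD as black bars. Tbx21 is lower and Eomes and Id2 are higher in every CD8+4T1+NaAc sample than in any CD8+4T1 sample, while replicate 1 of CD8+4T1+NaAc stands alone at 61.3 FPKM for Runx3.

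T-bet and Eomes are the T-box factors of cytotoxic lymphocytes. Tbx21 (ENSMUSG00000001444, listed on chromosome 11 from 96988897 to 97006157, minus strand) had 56.4, 52.1, 54.4, 54.5 and 49.6 FPKM in replicates 1 to 5 of CD8+4T1 and 36.1, 38.3, 33.5, 38.8 and 32.2 FPKM in those of CD8+4T1+NaAc. Every acetate sample lay below every control sample. The means were 53.4 ± 2.62 and 35.8 ± 2.88 FPKM (SD, n = 5 each), a log2 fold change of -0.58 (standard error 0.06, 95% interval -0.72 to -0.44, limma adjusted p = 7.55e-05). The fall was between -0.61 and -0.54 on the log2 scale with any single sample left out. Eomes (ENSMUSG00000032446, chromosome 9 from 118307280 to 118315200, plus strand) had 10.4, 8.62, 9.40, 8.97 and 9.93 FPKM in CD8+4T1 and 14.3, 11.7, 12.2, 12.7 and 12.7 FPKM in CD8+4T1+NaAc. Its groups did not overlap either, in the opposite direction. Its log2 fold change was 0.42 (standard error 0.07, 95% interval 0.27 to 0.57, limma adjusted p = 0.000794). Groups that do not overlap were found for 26.4% of all genes tested, 13.1% higher and 13.3% lower, and the exact permutation p of such a gene is 0.00794, the smallest that 5 against 5 samples can give.

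Because FPKM are per gene length, the T-box genes can be set against each other within a sample, where the scaling of the samples plays no part. Tbx21 stood 5.44, 6.04, 5.79, 6.08 and 4.99 times above Eomes in CD8+4T1, and 2.53, 3.28, 2.74, 3.06 and 2.54 times above it in CD8+4T1+NaAc. The mean ratio of FPKM was 5.67 ± 0.454 without and 2.83 ± 0.331 with acetate (SD, n = 5 each), and no acetate sample reached the lowest control sample. On the log2 scale the ratio differed by -1.0, and by between -1.06 and -0.96 with any 1 sample left out. The genes were known to differ from earlier results of these data, so no test is attached to the ratio. Tbx21 stayed the more abundant transcript in all 10 samples.

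**Figure D2:**
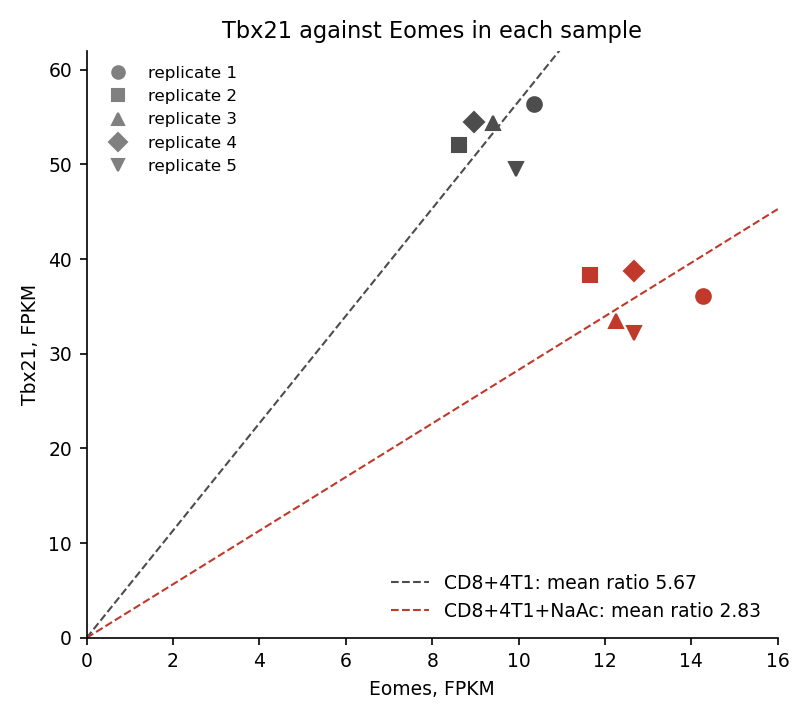
FPKM of Tbx21 (vertical axis) against FPKM of Eomes (horizontal axis) in each of the 10 samples, with CD8+4T1 in grey, CD8+4T1+NaAc in red and symbols for replicates; the dashed lines are the mean ratios of 5.67 and 2.83. The groups are apart on both axes.

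In bulk RNA, fewer cells of a type and less RNA per cell cannot be told apart, and markers of other cell types moved with the groups. Of 15 epithelial and 4T1 markers, 10 were tested and 8 were higher in CD8+4T1+NaAc, none lower, with a median log2 fold change of 2.76 and a summed level of 61.4 to 79.8 FPKM in CD8+4T1 and of 182.9 to 350.8 FPKM in CD8+4T1+NaAc. None of the 15 was at 0 in all samples, but Krt5 and Krt19 stayed at or near 0. The 12 T cell markers summed to 948.3 to 1058.5 FPKM and to 875.7 to 983.0 FPKM, with 1 called higher and 6 lower, Cd3d among the latter (log2 fold change -0.54, limma adjusted p = 0.00405), and under same-total scaling 4 were called higher and 4 lower. With the samples scaled to these T cell markers, Tbx21 had a log2 fold change of -0.42 (limma adjusted p = 0.00314) and Eomes of 0.58 (limma adjusted p = 0.000629). The part of the epithelial markers in these results was not tested. Markers of other cell types were low: their sums were at most 6.24 FPKM for B cells, 1.41 FPKM for NK cells and 2.72 FPKM for fibroblasts, of which 0 of 2, 0 of 1 and 1 of 2 tested genes were called, the last higher (Pdgfra, log2 fold change 2.32). The fibroblast sum did not overlap between the groups, at 0.594 to 0.889 FPKM in CD8+4T1 and 1.82 to 2.72 FPKM in CD8+4T1+NaAc. The sums for B cells and for NK cells overlapped. Without replicate 1 of CD8+4T1+NaAc the B cell marker Cd79b was called higher (0.50 on the log2 scale, limma adjusted p = 0.0128). Of the 8 myeloid markers 4 were tested and 2 were higher (S100a8 and Lyz2), or 1 to 2 with a sample left out. Without replicate 1 of CD8+4T1, Cd68 was called lower (-0.23 on the log2 scale, limma adjusted p = 0.0423). The 8 markers summed to 24.1 to 32.1 FPKM in CD8+4T1 and to 26.6 to 31.0 FPKM in CD8+4T1+NaAc. Most of this was Cd68, while S100a9 was at 0 throughout. The 3 CD4 T cell markers summed to 13.5 to 15.3 FPKM and to 11.7 to 17.9 FPKM, mostly Zbtb7b, and Cd4 was called higher (a difference of 1.44 on the log2 scale, limma adjusted p = 0.000317). Zbtb7b was not called (log2 fold change -0.13, limma adjusted p = 0.385). Without replicate 1 of CD8+4T1+NaAc, the sample with the sum of 17.9 FPKM, Zbtb7b was called lower (-0.24 on the log2 scale, limma adjusted p = 0.0156). Under same-total scaling the log2 fold change of Zbtb7b was 0.04, without a call.

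Id2 encodes a helix-loop-helix protein without a DNA-binding region, which holds E proteins away from DNA. Id2 (ENSMUSG00000020644, chromosome 12 from 25143798 to 25147139, minus strand) had 38.8, 36.3, 31.9, 33.0 and 35.3 FPKM in CD8+4T1 and 39.6, 43.5, 42.3, 48.5 and 40.3 FPKM in CD8+4T1+NaAc. The groups did not overlap, although the highest control sample and the lowest acetate sample, both replicate 1, lay close to each other. The log2 fold change was 0.29 (standard error 0.07, 95% interval 0.13 to 0.44, limma adjusted p = 0.00831), and it was 0.35 without replicate 1 of both groups (limma adjusted p = 0.00237), 0.46 under same-total scaling (limma adjusted p = 0.00103) and 0.45 with scaling to T cell markers (limma adjusted p = 0.00296).

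The promoters of the genes whose groups did not overlap are shown because Tbx21 moved against Eomes and Id2. The sequences are those of RefSeq (GRCm38.p6), from 250 bases before to 50 bases after the start; 6 of the 8 genes have an entry, and Bhlhe40 and Ikzf3 do not. They lie at chr11:97115282-97115581 (minus strand) for Tbx21, chr9:118477939-118478238 (plus strand) for Eomes and chr12:25096043-25096342 (minus strand) for Id2. Capitals mark matches, on either strand, to the E-box CANNTG bound by E proteins and Zeb factors, to GGTGTGA (a T-box half-site), to TGTGGT (RUNX), to TGGGAA (Ikaros family) and to TTCNNNGAA (STAT).
Tbx21: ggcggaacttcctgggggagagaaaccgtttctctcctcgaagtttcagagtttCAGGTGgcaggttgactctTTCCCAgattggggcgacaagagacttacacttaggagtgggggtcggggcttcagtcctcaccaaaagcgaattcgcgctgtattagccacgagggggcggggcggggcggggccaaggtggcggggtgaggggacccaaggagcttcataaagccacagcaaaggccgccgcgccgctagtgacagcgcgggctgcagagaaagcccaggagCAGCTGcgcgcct
Eomes: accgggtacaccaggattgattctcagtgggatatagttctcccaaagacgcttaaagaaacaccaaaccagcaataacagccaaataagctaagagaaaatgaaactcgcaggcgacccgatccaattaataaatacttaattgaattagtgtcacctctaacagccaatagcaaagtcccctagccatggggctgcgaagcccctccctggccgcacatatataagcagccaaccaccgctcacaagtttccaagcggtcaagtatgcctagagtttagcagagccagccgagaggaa
Id2: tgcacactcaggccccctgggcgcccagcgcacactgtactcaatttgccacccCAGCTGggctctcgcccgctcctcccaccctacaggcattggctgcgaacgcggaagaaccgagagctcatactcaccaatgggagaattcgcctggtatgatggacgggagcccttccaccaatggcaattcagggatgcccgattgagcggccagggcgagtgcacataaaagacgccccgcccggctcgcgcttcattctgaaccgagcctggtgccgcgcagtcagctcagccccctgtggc
Tbx21 held 2 E-boxes and 1 Ikaros match, Id2 held 1 E-box, and Eomes held no match to any of the 5 motifs. The GC content was 62% for Tbx21, 63.3% for Id2 and 47.3% for Eomes. Of all 32851 promoter windows of this length, 72.3% hold an E-box, 25.6% the Ikaros letters, 16.8% the RUNX letters, 8.3% the STAT letters and 3.98% the T-box half-site. Among the other windows of the 8 genes, the first Runx3 promoter (chr4:135120395-135120694, plus strand) held 2 RUNX matches, 1 E-box and 1 Ikaros match, and that of Prdm1 held 2 E-boxes and 1 Ikaros match. The second Runx3 window (chr4:135152295-135152594, plus strand) held 1 E-box. For Zeb2, the window at chr2:45113230-45113529 held 1 STAT match. The window at chr2:45113204-45113503, which overlaps it, held 1 STAT and 1 Ikaros match. The Zeb2 windows at chr2:45117393-45117692 and chr2:45110228-45110527 held no match. A match is only a run of letters and was not linked to any reading of these samples.

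Id2 was not alone among the genes of its family. Id3, which in CD8+ T cells is tied to memory precursors, had 7.59, 7.20, 5.99, 7.56 and 5.75 FPKM in CD8+4T1 and 19.6, 22.0, 17.5, 15.7 and 12.7 FPKM in CD8+4T1+NaAc. All acetate samples were above all control samples, and the difference was 1.33 on the log2 scale (standard error 0.14, limma adjusted p = 7.3e-05). Id1 ranged from 1.43 to 3.87 FPKM without and from 11.8 to 39.0 FPKM with acetate (log2 fold change 3.02, limma adjusted p = 8.52e-05). Within CD8+4T1+NaAc, Id1 and Id3 were highest in replicate 2 and lowest in replicate 5, as were the keratin gene Krt8 and Klf2, whereas Id2 was highest in replicate 4 and lowest in replicate 1. The E protein genes were not called: Tcf3 had 24.5 ± 1.67 and 26.9 ± 1.52 FPKM (SD, n = 5 each; log2 fold change 0.14, 95% interval 0.01 to 0.27, limma adjusted p = 0.0950) and Tcf12 had a log2 fold change of -0.05 (95% interval -0.22 to 0.12, limma adjusted p = 0.629). Under same-total scaling Tcf3 was called higher (log2 fold change 0.31, limma adjusted p = 0.00253).

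Runx3 fixes the CD8+ lineage and opens effector genes together with its partner CBF-beta, encoded by Cbfb. Runx3 (ENSMUSG00000070691, chromosome 4 from 134847963 to 134905301, plus strand) had 48.2, 43.2, 41.7, 44.3 and 42.9 FPKM in CD8+4T1 and 61.3, 33.2, 34.4, 35.6 and 34.4 FPKM in CD8+4T1+NaAc. Replicates 2 to 5 of CD8+4T1+NaAc lay below all control samples and replicate 1 above all of them. With all 10 samples the log2 fold change was -0.19 (95% interval -0.52 to 0.15, limma adjusted p = 0.366). Without replicate 1 of CD8+4T1+NaAc it was -0.35 (limma adjusted p = 0.000248), and without replicate 1 of both groups -0.32 (limma adjusted p = 0.000227), so a single sample decided this call. Under same-total scaling the log2 fold change over all 10 samples was -0.01 (limma adjusted p = 0.965), and this scaling was not combined with leaving out replicate 1. The lncRNA Gm16224, which overlaps Runx3 on the other strand, held 95 to 185 fragments per sample, at most 4.59% of those of Runx3. Cbfb was lower in CD8+4T1+NaAc, with 57.7, 52.5, 49.8, 52.7 and 55.1 FPKM against 45.2, 29.6, 29.6, 27.6 and 33.2 FPKM (log2 fold change -0.72, standard error 0.12, limma adjusted p = 0.000868). Its groups did not overlap, replicate 1 was again the highest acetate sample, and the call held under the same-total scaling (log2 fold change -0.54, limma adjusted p = 0.0063). The other RUNX genes were not called: Runx1 had a log2 fold change of 0.42 (limma adjusted p = 0.0785, and 0.0213 under the same-total scaling) and Runx2 of -0.09 (limma adjusted p = 0.577). Runx2, like Runx3, was called lower without replicate 1 of CD8+4T1+NaAc (-0.21 on the log2 scale, limma adjusted p = 0.00732).

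**Figure D3:**
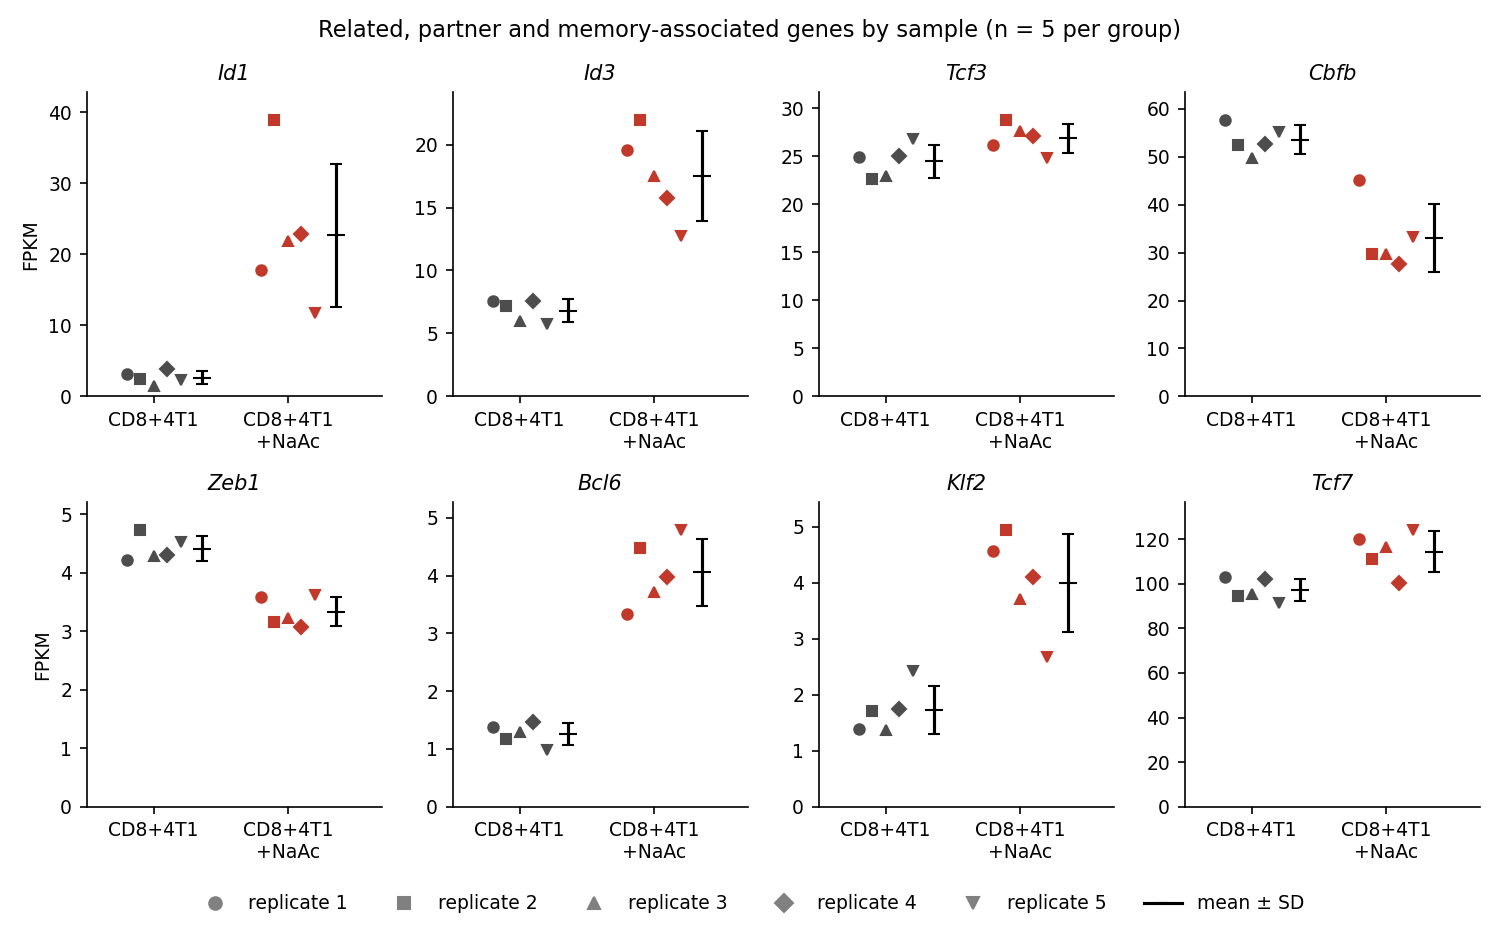
FPKM (vertical axes, each from 0) of the Id genes Id1 and Id3, the E protein gene Tcf3, the RUNX partner Cbfb, the Zeb2 relative Zeb1 and the memory-associated Bcl6, Klf2 and Tcf7 in the 5 samples of each group, with the mean ± SD in black. Tcf3 and Tcf7 overlap between the groups, and the other 6 genes do not.

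Ikzf3 encodes Aiolos, a zinc finger factor of the Ikaros family. Ikzf3 (ENSMUSG00000018168, chromosome 11 from 98355728 to 98436857, minus strand) had 7.83, 7.96, 7.90, 7.42 and 7.26 FPKM in CD8+4T1 and 8.85, 7.88, 8.58, 9.06 and 9.58 FPKM in CD8+4T1+NaAc. The groups overlapped through replicate 2 of CD8+4T1+NaAc, and the log2 fold change was 0.19 (standard error 0.06, 95% interval 0.06 to 0.32, limma adjusted p = 0.0288). The call was lost without replicate 4 or 5 of CD8+4T1 (limma adjusted p = 0.0640 and 0.0694) and without replicate 4 or 5 of CD8+4T1+NaAc (limma adjusted p = 0.0674 and 0.0633), and also without the filter on low values (limma adjusted p = 0.0596). Under same-total scaling the difference was 0.37 on the log2 scale (limma adjusted p = 0.00169), and with scaling to T cell markers 0.35 (limma adjusted p = 0.00198). Its relatives Ikzf1 (log2 fold change -0.13, limma adjusted p = 0.118), Ikzf2 (-0.20, limma adjusted p = 0.213) and Ikzf4 (-0.35, limma adjusted p = 0.0627) were not called, and Ikzf5 was below the filter. Ikzf1 was called lower without replicate 1 of CD8+4T1+NaAc (-0.17 on the log2 scale, limma adjusted p = 0.0244), while under same-total scaling its log2 fold change was 0.05 (limma adjusted p = 0.612). Ikzf4 was called lower without replicate 4 of CD8+4T1+NaAc (-0.46 on the log2 scale, limma adjusted p = 0.0110). It was also called with voom (0.0344) and with the filter at 5 FPKM (0.0464), while under same-total scaling its log2 fold change was -0.18 (limma adjusted p = 0.348).

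Prdm1 encodes Blimp-1, a repressor that promotes terminal effector differentiation and silences memory genes. Prdm1 (ENSMUSG00000038151, chromosome 10 from 44313173 to 44404497, minus strand) was the least abundant of the 8 genes, with 1.34, 1.48, 1.46, 1.11 and 1.61 FPKM in CD8+4T1 and 3.74, 1.51, 2.34, 2.79 and 1.49 FPKM in CD8+4T1+NaAc. Replicates 1, 3 and 4 of CD8+4T1+NaAc lay above the control samples, and replicates 2 and 5 lay among them. The coefficient of variation was 13.4% in CD8+4T1 and 39.8% in CD8+4T1+NaAc. The log2 fold change of 0.65 was the largest in size of the 8 in the main comparison, yet with a standard error of 0.24 (95% interval 0.12 to 1.17) it had a limma adjusted p of 0.0546. The rank depended on the setting. Tbx21 had the larger change with a pseudocount of 1 (-0.57 against 0.45 for Prdm1). The same held without replicate 1 (-0.58 against 0.47) or replicate 4 (-0.61 against 0.57) of CD8+4T1+NaAc. Without replicate 2 or without replicate 5 of CD8+4T1+NaAc the adjusted p of Prdm1 in limma was 0.0282 and 0.0245, and without replicate 1 of both groups its log2 fold change was 0.46 (limma adjusted p = 0.122). Bcl6, whose product and Blimp-1 are known to repress each other's genes, was higher, at 0.986 to 1.46 FPKM in CD8+4T1 against 3.34, 4.47, 3.72, 3.97 and 4.79 FPKM in replicates 1 to 5 of CD8+4T1+NaAc (log2 fold change 1.62, standard error 0.13, limma adjusted p = 2.01e-05). The acetate sample with the most Prdm1, replicate 1, had the least Bcl6 of its group, and replicate 5 had the least Prdm1 and the most Bcl6. However, Prdm1 was nearly the same in replicates 2 and 5 of CD8+4T1+NaAc (1.51 and 1.49 FPKM), and both genes had a positive log2 fold change between the groups. A link between Prdm1 and Bcl6 in these samples was not tested.

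Zeb2, a zinc finger repressor that acts downstream of T-bet in terminal effector cells, and Bhlhe40, a helix-loop-helix factor induced by antigen receptor signals, were not called. Zeb2 (ENSMUSG00000026872, chromosome 2 from 44873644 to 45007407, minus strand) had 3.65, 3.09, 3.24, 3.03 and 3.42 FPKM in CD8+4T1 and 3.08, 3.30, 3.35, 3.31 and 2.98 FPKM in CD8+4T1+NaAc. The groups overlapped throughout (log2 fold change -0.03, 95% interval -0.20 to 0.13, limma adjusted p = 0.758). Its relative Zeb1 was lower, ranging from 4.21 to 4.73 FPKM without and from 3.08 to 3.62 FPKM with acetate (log2 fold change -0.39, limma adjusted p = 0.00148). Zeb1 was at an adjusted p of 0.0375 in limma with the same total and of 0.0504 with scaling to T cell markers. Bhlhe40 (ENSMUSG00000030103, chromosome 6 from 108637590 to 108643886, plus strand) had 159.2, 150.8, 156.1, 151.8 and 182.1 FPKM in CD8+4T1 and 155.5, 137.8, 160.0, 172.4 and 170.5 FPKM in CD8+4T1+NaAc. The ranges overlapped and the log2 fold change was -0.01 (95% interval -0.17 to 0.16, limma adjusted p = 0.946). The sign of the difference for Zeb2 and Bhlhe40 changed with the scaling. Bhlhe41, the relative of Bhlhe40, was low and called higher (0.553 ± 0.110 and 1.12 ± 0.587 FPKM, SD, n = 5 each; log2 fold change 0.81, limma adjusted p = 0.0436), with the highest value, 2.15 FPKM, in replicate 1 of CD8+4T1+NaAc. The Bhlhe41 call was lost without any of 7 samples, replicates 2 to 5 of CD8+4T1 and replicates 3 to 5 of CD8+4T1+NaAc (limma adjusted p from 0.0508 to 0.0882), and also with a pseudocount of 1 (0.0625) or without the filter on low values (0.0698).

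**Figure D4:**
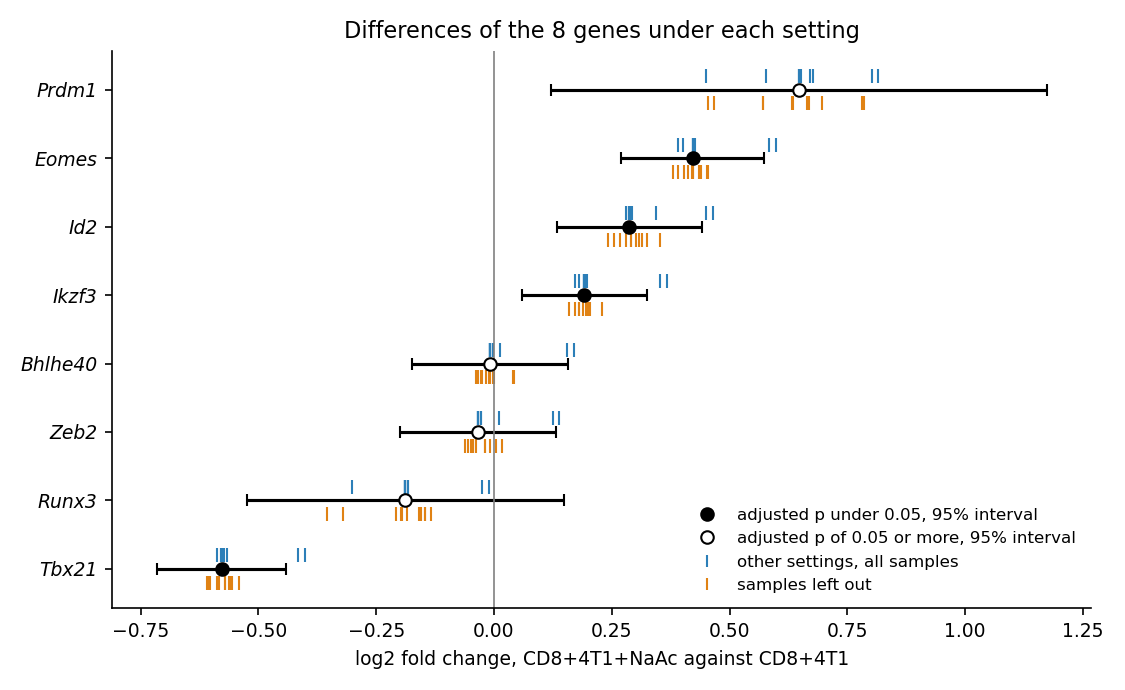
Log2 fold change of CD8+4T1+NaAc against CD8+4T1 (horizontal axis) for the 8 genes, with the 95% interval from limma; filled points have an adjusted p under 0.05, blue marks are other settings with all samples and orange marks are fits with samples left out. Tbx21 is below 0 and Eomes, Id2, Ikzf3 and Prdm1 are above 0 under every setting shown.

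The order of the 8 genes by level changed in the middle. In CD8+4T1 it was Bhlhe40 (mean 160.0 FPKM), Tbx21 (53.4), Runx3 (44.1), Id2 (35.1), Eomes (9.46), Ikzf3 (7.67), Zeb2 (3.29) and Prdm1 (1.40), with no overlap between neighbours over the 5 samples. In CD8+4T1+NaAc it was Bhlhe40 (mean 159.2 FPKM), Id2 (42.8), Runx3 (39.8), Tbx21 (35.8), Eomes (12.7), Ikzf3 (8.79), Zeb2 (3.20) and Prdm1 (2.37). The FPKM of Id2 and Runx3, of Runx3 and Tbx21, and of Zeb2 and Prdm1 then overlapped. The rank of Runx3 above Tbx21 came from replicate 1 of CD8+4T1+NaAc. Over replicates 2 to 5 the mean was 34.4 FPKM for Runx3 and 35.7 FPKM for Tbx21. Id2 exceeded Tbx21 in every acetate sample, and Tbx21 exceeded Id2 in every control sample.

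Beyond the genes above, the table assigns 17 genes to the T-box family, of which 4 were tested. Besides Tbx21 and Eomes these were Mga (log2 fold change -0.26, limma adjusted p = 0.0163) and Tbx6 (-0.72, limma adjusted p = 0.0241), both lower. Tbx6 was not called with the same-total scaling (limma adjusted p = 0.0766), and whether Mga kept its call there is not reported here. Of 41 other helix-loop-helix genes tested 10 were higher and 6 lower, and of 389 other C2H2 zinc finger genes 27 were higher and 51 lower. In the list of 21 relatives and partners of the 8 genes, 18 were tested, 3 were higher (Id1, Id3 and Bhlhe41) and 4 were lower (Tbx6, Cbfb, Zeb1 and Prdm9), with a median log2 fold change of -0.08. With the same-total scaling 6 were higher and 2 lower, the median was 0.09, and Prdm9 was not called (limma adjusted p = 0.0887). The Tbx6 call was also lost without replicate 3 of CD8+4T1 and without replicate 2 or 4 of CD8+4T1+NaAc (limma adjusted p = 0.0507, 0.0556 and 0.0582).

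Factors known to oppose the effector fate moved in both directions. Of 10 memory-associated factors, all tested, 5 were higher (Bcl6, Id3, Klf2, Myb and Tcf7), 4 were lower (Lef1, Zeb1, Foxo1 and Satb1) and Bach2 was not called (log2 fold change 0.01, limma adjusted p = 0.901). The median log2 fold change of the list was 0.12. Klf2, which keeps T cells quiescent and recirculating, ranged from 1.36 to 2.43 FPKM without and from 2.67 to 4.94 FPKM with acetate (log2 fold change 1.17, limma adjusted p = 0.000798). Like Krt8, Klf2 and Id3 were highest in replicate 2 and lowest in replicate 5 of CD8+4T1+NaAc, and which cells their RNA came from was not tested. Myb, a regulator of stem-like T cells, differed by 0.68 on the log2 scale (standard error 0.07, limma adjusted p = 7.47e-05). Tcf7 encodes TCF-1 and was the most abundant of the list, with 97.2 ± 5.09 and 114.4 ± 9.19 FPKM (SD, n = 5 each; log2 fold change 0.23, limma adjusted p = 0.0158), while Lef1, its close relative, was lower (-0.41, limma adjusted p = 0.000679). Under same-total scaling the list gave 6 higher and 2 lower with a median of 0.30, as Foxo1 and Satb1 lost their calls (limma adjusted p = 0.0865 and 0.254) and Bach2 gained one. Without replicate 1 of both groups it again gave 5 higher and 4 lower.

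T-bet and Blimp-1 are induced through the receptors for IL-12, IL-2, IL-21 and interferon-gamma and their JAK and STAT proteins. Of 17 such genes, all tested, 6 were higher (among them Il12rb2, Il21r, Ifngr1, Stat3 and Tyk2), 3 were lower (Il2ra, Il2rg and Jak3) and 8 were not called, with a median log2 fold change of 0.12. The largest were Ifngr1 (26.6 ± 1.27 and 36.7 ± 3.45 FPKM, SD, n = 5 each; log2 fold change 0.46, limma adjusted p = 0.000383) and Il21r (log2 fold change 0.33, limma adjusted p = 0.00192). Il2ra, the high-affinity chain of the IL-2 receptor, had 166.4 ± 5.28 and 135.7 ± 8.44 FPKM (SD, n = 5 each; log2 fold change -0.30, limma adjusted p = 0.00157). Stat4, which carries the IL-12 signal to Tbx21, was not called (log2 fold change -0.07, limma adjusted p = 0.579). With the same-total scaling 9 genes were higher and 0 lower with a median of 0.30, so the falls of Il2ra, Il2rg and Jak3 were not called there. The call of Il12rb2 was lost without any single sample except replicate 2 of CD8+4T1 and replicates 1 and 2 of CD8+4T1+NaAc (limma adjusted p from 0.0547 to 0.0903), and that of Stat3 without any except replicate 5 of CD8+4T1 and replicates 1 and 2 of CD8+4T1+NaAc (0.0505 to 0.0590).

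Of 26 genes of the effector program, which the 8 factors act on or which mark effector or memory cells, 20 were tested, 6 were higher (Gzma, Ccl3, Ccl5, Il7r, Ccr7 and Cd27) and 2 were lower (among them Nkg7). The median log2 fold change was 0.26. Ccl5, a chemokine of effector cells, had 43.8, 48.8, 57.6, 53.2 and 41.0 FPKM without and 98.6, 155.1, 172.6, 186.6 and 156.8 FPKM with acetate (log2 fold change 1.63, standard error 0.16, limma adjusted p = 5.29e-05). Ifng, a target of T-bet and Eomes, was not called (480.9 ± 61.6 and 407.6 ± 107.2 FPKM, SD, n = 5 each; log2 fold change -0.27, 95% interval -0.64 to 0.10, limma adjusted p = 0.243; -0.09 under same-total scaling and -0.39 with an adjusted p of 0.0564 without replicate 1 of CD8+4T1+NaAc), nor were Gzmb (log2 fold change 0.03, limma adjusted p = 0.755), Prf1 (0.14, limma adjusted p = 0.130) and Il2rb (0.14, limma adjusted p = 0.171). Klrg1, Cx3cr1 and S1pr5, surface markers of terminal effector cells, were below the filter in both groups, with 0 to 14 fragments per sample. The count depended on the setting: with the same-total scaling 16 genes were higher and 0 lower with a median of 0.43, with Gzmb, Prf1 and Il2rb among the higher (limma adjusted p = 0.0302, 0.00406 and 0.00694), and without replicate 1 of CD8+4T1+NaAc 14 were called, with Il2rb among them (limma adjusted p = 0.0365). The call of Ccr7 was lost without any single sample except replicate 5 of CD8+4T1 and replicate 1 of CD8+4T1+NaAc (limma adjusted p from 0.0633 to 0.101), and that of Cd27 without replicate 3 of CD8+4T1+NaAc (0.0539).

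**Figure D5:**
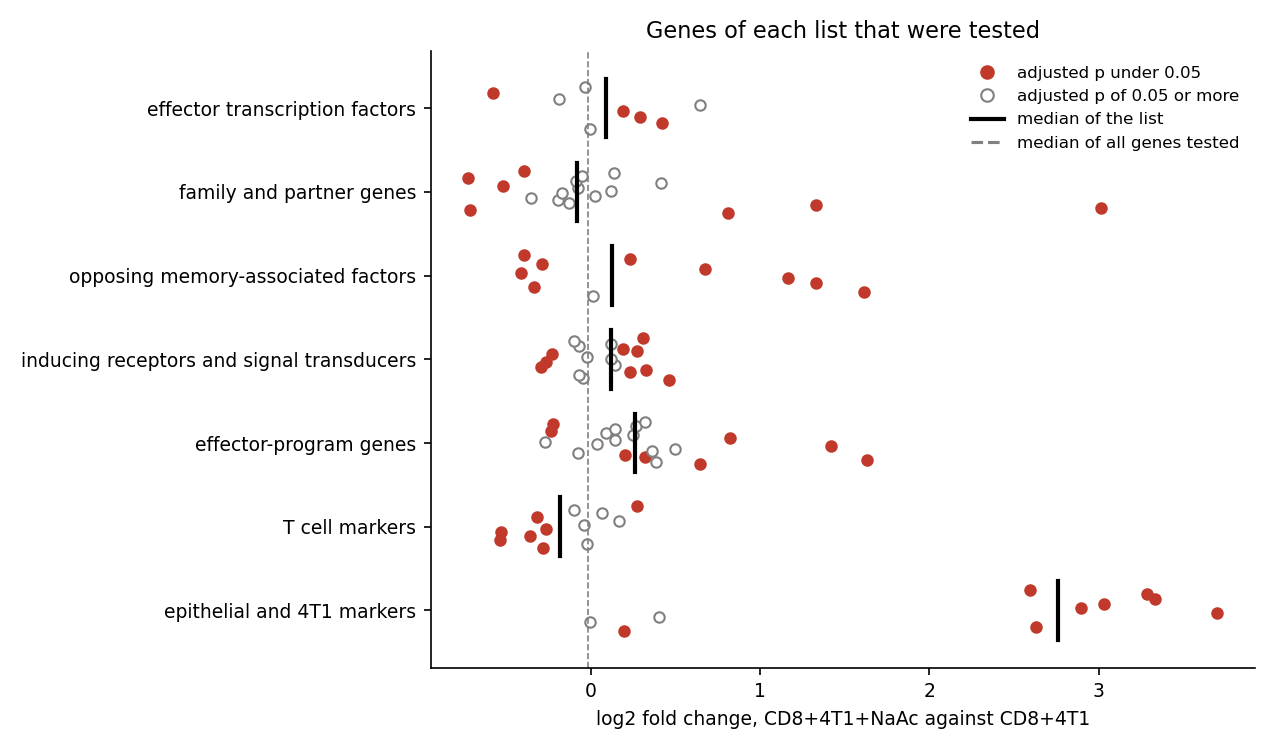
Log2 fold change of CD8+4T1+NaAc against CD8+4T1 (horizontal axis) for each tested gene of the lists on the vertical axis; filled points were called in limma, the black bar is the median of the list and the dashed line is the median of all genes tested (-0.02). The 8 effector factors lie between -0.58 and 0.65, and the memory-associated factors between -0.41 and 1.62.

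For each of the 8 genes, the protein-coding genes with the most similar profile over the 10 samples were found by the root mean square difference of centred log2 values among 7047 genes averaging 5 FPKM or more. For Tbx21 these were Dynll1 (0.07) and Rps19bp1 (0.08), for Eomes Pcnx3 (0.06) and Cemip2 (0.07), and for Id2 Ttc7 (0.06) and Elmo2 (0.06). Runx3 was matched by Kmt2d (0.07) and Cnep1r1 (0.08), Ikzf3 by Atrx (0.04) and Neu3 (0.05), Zeb2 by Cep120 (0.05) and Sft2d2 (0.06), and Bhlhe40 by Myo10 (0.04) and Hif1an (0.06). The nearest profiles to Prdm1, Ccr4 (0.27) and Chst11 (0.27), were less similar, and its median difference over all candidates was 0.54 against 0.18 to 0.31 for the other 7 genes. The samples share the group difference and the scaling, so these values describe likeness in this table only.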

How the data were processed

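RNA from 10 samples of purified CD8+ T cells, 5 per group by label, was sequenced after co-culture. The authors prepared NEBNext Ultra libraries, sequenced them on an Illumina NovaSeq and deposited FPKM for each sample; the methods name StringTie 1.3.3b and featureCounts for the mapped reads, and the submitters' processing notes also name fastp, HISAT2 2.0.5 and featureCounts 1.5.0-p3. Genome build, annotation and strand setting are not given in the sources used here; 0 of the 8 genes have the start and end of GENCODE M21 (GRCm38), so positions are given as listed. The authors also deposited gene lengths, an other kind of column with no normalization. Multiplied by length, 100% of FPKM values were whole multiples of a step per sample (within 0.1), which gave the fragments per gene.

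The 15710 genes averaging 0.5 FPKM or more entered limma 3.58.1 (R 4.3.3) as log2(FPKM + 0.1), with trend and robust moderation and group as the only term; fold changes on this scale understate those of low genes. Fragments were used in a voom alternative only, since FPKM are not counts. The step was tested on simulated data. The 8 genes and all lists were chosen with earlier results of these data known. The text names the 8 genes, list genes that were called or are relatives or partners, and for each of the 8 the 2 most similar profiles; Mga, Bach2, Stat4, Ifng, Gzmb, Prf1, Il2rb, Klrg1, Cx3cr1, S1pr5 and uncalled markers were added outside this rule after their values were seen. The 11 gene lists (4 of relatives, opposing factors, inducers and targets, 7 of cell type markers) are described by counts and medians, with no set test, and some list genes are not reported here by name. Alternatives were other pseudocounts, filters, scalings, variance models, voom, a replicate block, an adjusted p under 0.01 and each sample left out; leaving out replicate 1 of both groups was added after the data were seen. Figures were drawn with matplotlib 3.10.9.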

Additional observations from a re-analysis of the deposited data

Results flagged for a closer look

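Samples were looked at again where the distance to the closest neighbour exceeded 0.71 of the whole range of a group. Of 22 groups of 5 values (the log2 FPKM of the 8 genes, the Tbx21 to Eomes ratio, the fragments and the genes above 0 FPKM), 5 showed this, and about 1.1 would by chance. Runx3 in replicate 1 of CD8+4T1+NaAc was the highest of its group (61.3 FPKM against 33.2 to 35.6 FPKM, a gap of 0.883 of the range). The same sample had the fewest genes above 0 FPKM of its group (20233, 0.916), and replicate 1 of CD8+4T1 the fewest of the other group (22291, 0.848). Bhlhe40 was highest in replicate 5 of CD8+4T1 (182.1 FPKM, 0.713), and replicate 2 of CD8+4T1+NaAc had the most fragments of its group (18853726, 0.747). The part of the sample's other differences in its Runx3 level was not tested.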

How the results depend on the processing

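Tbx21, Eomes and Id2 kept their direction and call under each of 11 other settings with all 10 samples and with each sample left out, and between 3 and 6 of the 8 genes were called across settings. The sign of Zeb2, never called, turned with the same-total scaling (log2 fold change 0.14), T cell marker scaling (0.13), sample weights (0.011) and without replicate 1 of both groups (0.018, chosen after seeing the data), and its values with 1 sample left out ran from -0.061 to 0.0042. The sign of Bhlhe40, never called, turned with the same total (0.17), T cell marker scaling (0.16) and sample weights (0.012), and ran from -0.038 to 0.043 with 1 sample left out. Over all genes tested 5742 were called, 3733 in a separate fit and adjustment over the 7800 genes averaging 5 FPKM or more (fewer genes tested) and 3702 at an adjusted p under 0.01, and between 4947 and 6965 with 1 sample left out. Sample weights called Runx3 (-0.30, limma adjusted p = 0.00483), and sample weights and voom called Prdm1 (adjusted p = 0.0216 and 0.0449). With the replicate block 3 of the 8 genes and 5399 genes in all were called, and Ikzf3 had a limma adjusted p of 0.0834; the sources do not say whether same-numbered samples share an animal, their deviations correlated at -0.03 to 0.07, and 2 of 5 control samples correlated best with their own number. Prdm1 and Zeb2 could not be fitted with the filter at 5 FPKM. The fewest fragments behind a value of the 8 genes were 102, for Prdm1.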
